A study of Homo sapiens with 4 samples.

Results

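Among the H3K27ac peaks that the B-ALL cell lines REH and 697 share, 4137 pairs lay over the same place in both lines but were at least 3 times as long in one line as in the other. In 1424 of these pairs the REH peak was the wider one, and in 2713 the 697 peak was. The pairs were chosen by the lengths of their own peaks. A pair is an autosomal REH peak that overlapped exactly 1 peak of 697 by at least 1 bp, where that 697 peak in turn overlapped no other REH peak, with both peaks under 10000 bp. There were 24274 such pairs, drawn from 44626 REH and 74504 697 peaks. Pairs wider in REH made up 5.87% of them (95% Wilson interval 5.58 to 6.17) and pairs wider in 697 made up 11.2% (10.8 to 11.6). These percents follow from the rule and are a description. The 12204 pairs whose lengths differed by a ratio under 1.5, called similar pairs here, served for comparison, and the other 7933 pairs lay in between.

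REH is a B-cell precursor leukemia line in which ETV6 is fused to RUNX1 and the remaining ETV6 allele is deleted, and 697 is a B-cell precursor leukemia line without this fusion. The labels name no treatment of either line. Each line gave 1 H3K27ac library, with an input DNA library of the same line as its control, so that a difference between the lines cannot be told apart from a difference between these libraries, and no test across cultures was possible. After duplicate tags were removed, 65241657 REH and 68911420 697 tags remained. All intervals cover counting error alone, and neighbouring pairs are not independent of each other. Whether the lines hold B-lineage marks at their defining genes was not checked here, since the peaks are on hg19 and no annotation of that build was used. The pairs are therefore given by position, without gene names or sequences.

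Acetylation of lysine 27 on histone H3 is laid down by the acetyltransferases CBP and p300 and marks active promoters and enhancers. A short peak covers a few nucleosomes around one regulatory element, whereas long stretches of the mark are known at strongly active promoters, where it runs into the transcribed gene, and at groups of enhancers. In a list of peaks, the length of a peak is the distance over which the pileup of fragments stayed above the local background, with gaps bridged by the peak caller up to a fixed size. Peaks of one list lay at least 749 bp apart in REH and 741 bp apart in 697, and the shortest peaks were 187 and 185 bp long, the fragment length estimated for each library.

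By median length, the wider peaks were longer and the narrower peaks shorter than the corresponding peaks of similar pairs. In pairs wider in REH, the REH peak had a median length of 1961 bp (95% binomial interval 1904 to 2044) and the 697 peak one of 389 bp (372 to 404). In pairs wider in 697, the 697 peak had a median of 2459 bp (2372 to 2529) and the REH peak one of 455 bp (439 to 471). In similar pairs the longer peak had a median of 1739.5 bp and the shorter one of 1460 bp. The narrower peak was at most 250 bp long in 23.2% of the pairs wider in REH and in 18.5% of those wider in 697, against 1.19% of the similar pairs. The rule used these same lengths to form the classes, so the contrasts with similar pairs follow largely from it and are a description. Whether such short peaks would be called again in another library was not tested.

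The length ratio had a median of 4.33 in pairs wider in REH and of 4.59 in pairs wider in 697, with upper quartiles of 5.88 and 6.80 and maxima of 45.3 and 49.4. At the threshold there was no gap in the ratios. For pairs with the longer peak in REH, the 5 just inside it had ratios of at most 3.006, and the 5 just outside had ratios of at least 2.994. The pair wider in REH with the lowest ratio lay on chromosome 7 and measured 603 bp in REH and 201 bp in 697, and the pair next to it on the other side of the threshold lay on chromosome 1 and measured 1988 and 663 bp.

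**Figure D1:**
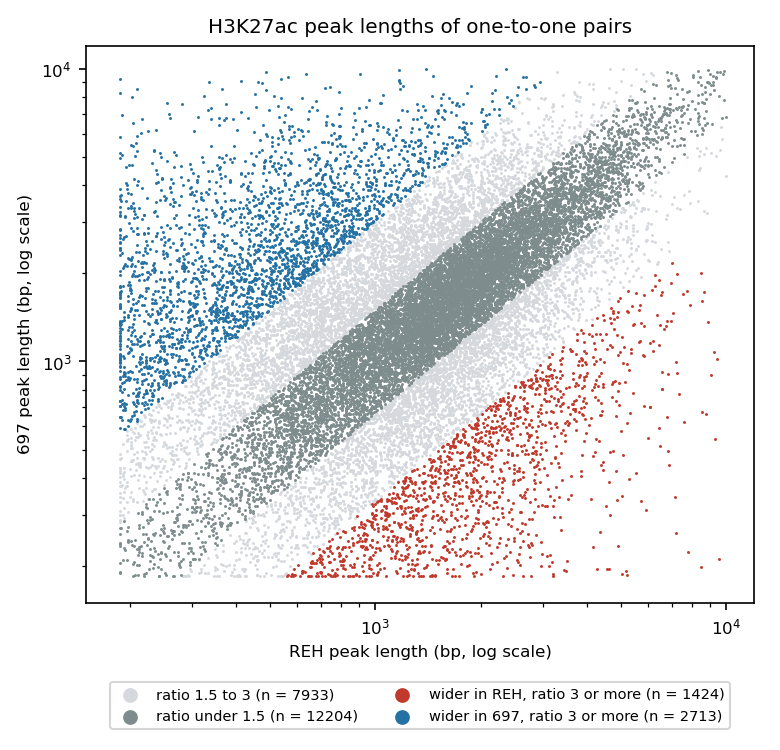
Each point is 1 of 24274 pairs, with the length of its REH peak on the horizontal and of its 697 peak on the vertical axis, both in bp on a log scale. The 1424 pairs wider in REH lie below the diagonal band of similar pairs and the 2713 wider in 697 above it, and the straight edges at the left and bottom are the shortest peaks called.

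Over all pairs the 697 peak was the longer one in 55.1% and the REH peak in 44.8%, with a median ratio of REH to 697 length of 0.939. The imbalance between the classes was larger than this, at 1.91 pairs wider in 697 for each pair wider in REH. It grew with the length of the wider peak. Where the wider peak was under 1000 bp, 3.95% of the pairs were wider in REH and 4.26% wider in 697. From 2000 to 3000 bp the percents were 6.42% and 12.3%, and from 5000 to 10000 bp they were 7.15% and 26.6%. From 1000 bp on the percent of 697 rose in each step, from 8.89% (8.33 to 9.49) to 26.6% (24.3 to 29.1). That of REH went from 6.04% (5.57 to 6.54) to 7.15% (5.87 to 8.69), and these intervals overlapped. The length of the wider peak enters the rule, and a longer wider peak leaves more room for the ratio that the rule asks. The change of each percent with length is therefore a description. The split also depends on how the lengths are scaled and on the lists that are paired. With each length divided by the median of its line over the paired peaks alone, 1724 pairs were wider in REH and 2275 in 697. REH then held 43.1% of the members in place of 34.4%. Over all peaks of each list the median was 1060 bp in REH and 871 bp in 697, and scaling by these was not run. When the 697 list was limited to its longest peaks, as many as REH has, 370 pairs were wider in REH and 2687 in 697, a REH share of 12.1%. That limit removes short 697 peaks, which are the narrower partners of the pairs wider in REH.

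Few of the peaks in either list were the wider peak of such a pair. Of 43547 autosomal REH peaks, 35.7% overlapped no 697 peak, 61.2% overlapped 1 and 3.12% overlapped several, and 3.27% were the wider peak of a pair described here. Of 73460 autosomal 697 peaks, 61.5% overlapped no REH peak, 37.0% overlapped 1 and 1.52% overlapped several, and 3.69% were such a wider peak. The same was read among peaks as long as the interquartile range of the wider peaks. Of 13136 REH peaks between 1293 and 2943 bp, 5.42% were the wider peak of such a pair, 19.7% had no partner and 2.58% were covered by several 697 peaks. Of 15261 697 peaks between 1588 and 3779 bp, the percents were 8.90%, 34.3% and 1.68%. Long peaks without any partner were therefore more frequent in both lines than long peaks with a much narrower one, and long peaks broken into several peaks in the other line were less frequent.

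The largest ratios were found at single loci spread over many chromosomes. The largest ratio in REH was at chr13:89581403-89590958, where the REH peak of 9556 bp met a 697 peak of 211 bp. On chromosome 8, a REH peak of 8470 bp at chr8:82017747-82026216 held a 697 peak of 199 bp, a ratio of 42.6. On chromosome 5, the REH peak at chr5:134707270-134715046 was 7777 bp long and the 697 peak 224 bp. In the other direction, the 697 peak at chr8:130579868-130589110 was 9243 bp long and the REH peak in it 187 bp. It was followed by 2 loci on chromosome 1. The 697 peak at chr1:26620454-26628705 measured 8252 bp against 187 bp in REH, and the one at chr1:110363928-110372463 measured 8536 bp against 210 bp. In the 12 pairs with the largest ratio in each direction, the wider peak was 4291 to 9556 bp long in REH and 5137 to 9243 bp long in 697. The narrower peak was 186 to 344 bp long in 697 and 187 to 256 bp long in REH, and in 7 of 12 pairs of each class it was within 20 bp of the fragment length.

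**Figure D2:**
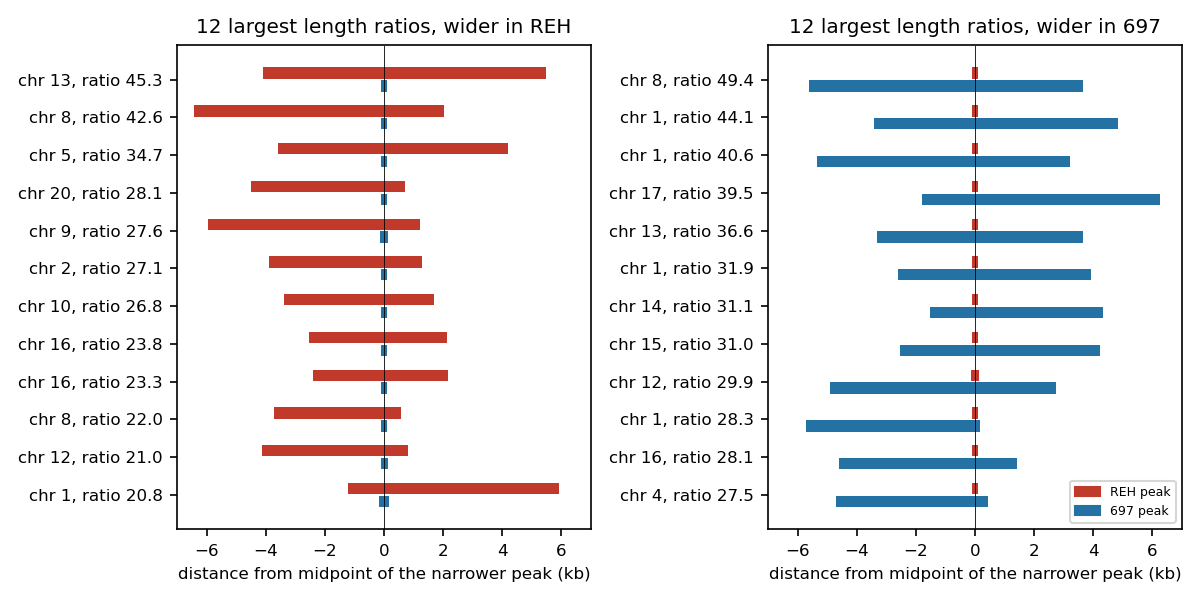
The 12 pairs with the largest length ratio in each direction are drawn to scale, with the distance in kb from the midpoint of the narrower peak on the horizontal axis, REH peaks in red and 697 peaks in blue. In all 24 pairs the wider peak passed the narrower one on both sides.

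By difference in length the order was another one. The largest difference in REH was again the chromosome 13 locus, with 9345 bp, followed by chr3:75430508-75439820, where the REH peak of 9313 bp met a 697 peak of 544 bp, and by chr3:71249273-71258684, with 9412 bp in REH and 1017 bp in 697. The REH peak at chr21:16128402-16137451 was 9050 bp long against 899 bp in 697. In 697 the largest difference was 9229 bp, at chr17:65669200-65678917, where the 697 peak measured 9718 bp and the REH peak 489 bp. The 697 peaks at chr8:68449563-68459169 and chr6:14393023-14402354 measured 9607 and 9332 bp, with REH peaks of 637 and 563 bp in them. A second locus on chromosome 17, chr17:4672975-4682870, had 9896 bp in 697 and 1172 bp in REH.

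The position of the narrower peak within the wider one was read in each pair. The wider peak passed the narrower one on both sides in 83.7% of the pairs wider in REH (81.7 to 85.5) and in 85.2% of those wider in 697 (83.8 to 86.5). In similar pairs the longer peak did so in 42.2% (41.3 to 43.1), which is lower by construction, since a peak that is little longer has little to spare, just as a short peak placed anywhere in one at least 3 times as long is mostly passed on both sides. With each wider peak divided into 3 equal parts, the midpoint of the narrower peak lay in the central part in 35.6% of the pairs wider in REH and 39.5% of those wider in 697, in an outer part in 60.0% and 56.8%, and past the end in the rest. With at least 200 bp asked on each side, 59.5% of the pairs wider in REH (56.9 to 62.0) and 66.2% of those wider in 697 (64.4 to 68.0) remained. The wider peaks of 697 are the longer ones and meet a fixed length more easily, so the difference between the classes cannot be told apart from that in length. The extensions were of unequal length. A short peak placed anywhere in a longer one also often leaves unequal extensions, and its midpoint often lies in an outer part. The percents for the 3 parts and for the extensions are therefore a description. Among the pairs passed on both sides, the shorter extension had a median of 366 bp and the longer one of 1203.5 bp in REH, and 485 and 1495 bp in 697. The longer extension was at least 3 times the shorter in 49.7% of those pairs in REH (46.9 to 52.6) and in 45.1% in 697 (43.1 to 47.1). It lay on the side of higher coordinates in 49.6% and 48.9%, so that neither side of the chromosome was favoured. The direction of extension relative to a gene was not analysed here.

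The distance from the wider peak to the next peak of the other line was also measured. The next peak of 697 began within 1000 bp of the ends of the REH peak in 8.78% and within 5 kb in 45.8% of the pairs wider in REH, and the median distance was 5834 bp (quartiles 2215 and 16596 bp). For pairs wider in 697, a REH peak began within 1000 bp in 7.22% and within 5 kb in 41.9%, with a median of 6687 bp (2588 and 18809 bp). Merging peaks of each list within 1000 bp before pairing gave 1424 pairs wider in REH and 2876 wider in 697 among 23608 pairs. Whether these were the same pairs was not tested, and 1171 of the 1424 were passed on both sides after merging, against 1192 before.

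The members were found on every autosome, and the balance of the classes differed between chromosomes. Pairs wider in 697 were 15.03% of the pairs on chromosome 13 (12.4 to 18.1) and 14.0% on chromosome 22 (11.6 to 16.7), the highest percents, and 5.96% on chromosome 19 (4.82 to 7.35) and 7.50% on chromosome 4 (5.92 to 9.47), the lowest. Pairs wider in REH ranged from 3.49% on chromosome 22 (2.36 to 5.14) and 3.81% on chromosome 15 (2.70 to 5.35) to 7.74% on chromosome 4 (6.13 to 9.73) and 8.41% on chromosome 21 (5.88 to 11.9). Chromosomes 19 and 4 were thus the autosomes with at least as many pairs wider in REH as in 697, with 94 and 81 pairs on chromosome 19 and 66 and 64 on chromosome 4. On chromosome 22 there were 24 and 96. The interval of the REH share of members on chromosome 19, 46.3 to 60.9%, lay above that on chromosome 22, 13.8 to 28.0%, and above the 34.4% over all autosomes. These intervals cover counting error alone.

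**Figure D3:**
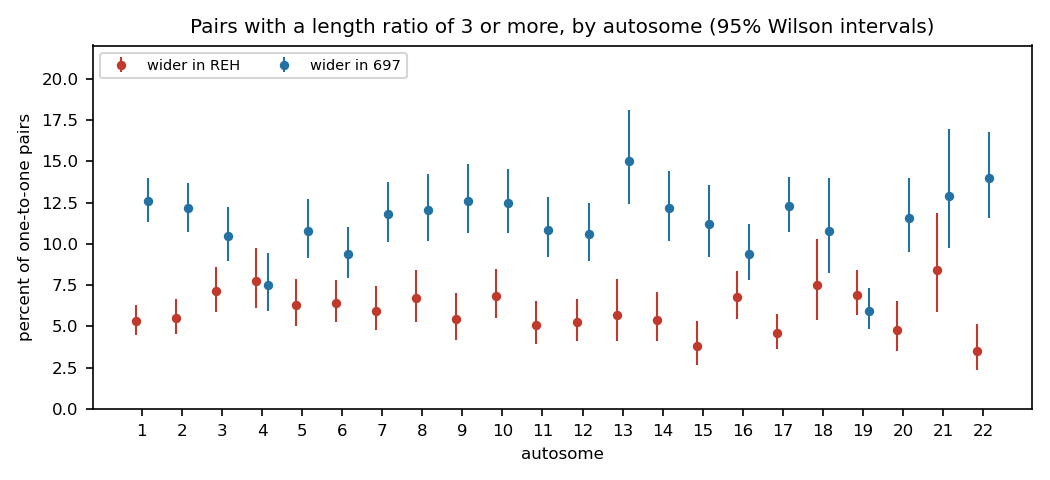
For each autosome on the horizontal axis, the points give the percent of its one-to-one pairs that were wider in REH (red) or wider in 697 (blue), with 95% Wilson intervals as bars. Pairs wider in 697 were the more frequent class on 20 of 22 autosomes, with chromosomes 4 and 19 as the exceptions.

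The chromosomes also differed in the number of peaks called. 697 had 1.14 times as many peaks as REH on chromosome 4, 1.30 times on chromosome 21 and 1.43 times on chromosome 19, and 1.84 times on chromosome 22 and 1.97 times on chromosome 15. Over the 22 autosomes, the Spearman correlation of the REH share of members with this ratio was -0.69, and -0.66 without chromosome 19. With the percent of similar pairs that were longer in REH it was 0.39, and 0.34 without chromosome 19. Chromosomes share the libraries of each line, so these values are descriptions. The part of the number of peaks in the balance of the classes was not tested.

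The balance of the classes also varied between windows of a chromosome. Of 30 windows of 5 Mb that held at least 20 members, a limit chosen after the data were seen, 4 had more pairs wider in REH than in 697, and 3 of these were on chromosome 19, where 53.7% of all members were wider in REH. The windows named here were picked by their own split, which is given as a description. From 0 to 5 Mb of chromosome 19, 17 of 21 members were wider in REH, and from 10 to 15 Mb 14 of 21 were. The other 2 windows were at 45 to 50 Mb of chromosome 19, with 16 of 29, and at 30 to 35 Mb of chromosome 6, with 12 of 21. At the other end, from 20 to 25 Mb of chromosome 22, 23 of 24 members were wider in 697. From 140 to 145 Mb of chromosome 8, 21 of 23 were, and from 200 to 205 Mb of chromosome 1, 31 of 34 were. These windows held many more 697 peaks than REH peaks, with 403 against 198 on chromosome 22, 440 against 149 on chromosome 8 and 562 against 168 on chromosome 1. Over all autosomes there were 73460 peaks in 697 against 43547 in REH. The first 5 Mb of chromosome 19 held 447 and 368. From 0 to 5 Mb of chromosome 7, 25 of 29 members were wider in 697, with 436 peaks in 697 and 180 in REH. Of the similar pairs in the same windows, 22 of 53 were longer in REH on chromosome 22, 15 of 33 on chromosome 8, 22 of 44 on chromosome 1, 16 of 49 on chromosome 7 and 68 of 115 in the first 5 Mb of chromosome 19. Over all autosomes 6029 of 12204 similar pairs were longer in REH.

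Members of one class also followed each other without a member of the other class between them. The longest such run had 23 pairs wider in 697 and lay at chr22:36279182-39178966, over 2899785 bp. Of the 47 similar pairs inside it, 22 were longer in REH. A run of 19 pairs wider in 697 lay at chr7:129417-2903591, where 10 of 37 similar pairs were longer in REH. Other runs of 19 lay at chr22:19977587-24247446, at chr22:40881214-47341507 and at chr2:106241391-120437071. In REH the longest run had 11 pairs, at chr16:29605955-31881432, followed by 10 pairs at chr19:1400971-2642155 and 10 at chr4:15758828-22679644. 697 has more members than REH, which by itself lengthens the runs of its class, so the runs are given as positions alone.

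The pair nearest to a member tended to be longer in the same line. The lengths of the nearest pair did not enter the class of the member, but the nearest pair was itself chosen and classed by the same rule. The nearest other pair was longer in 697 for 69.5% of the pairs wider in 697 (67.8 to 71.2), against 54.1% of the similar pairs (53.2 to 55.0). It was longer in REH for 55.0% of the pairs wider in REH (52.4 to 57.6), against 45.8% of the similar pairs (44.96 to 46.7). The interval of each class did not overlap that of the similar pairs. The nearest pair was itself wider in 697 by a ratio of 3 or more for 20.1% of the pairs wider in 697 and for 7.37% of those wider in REH, where 11.6% of the nearest pairs of all pairs were. It was wider in REH for 9.13% of the pairs wider in REH and for 3.91% of those wider in 697, where 5.78% of the nearest pairs of all pairs were. On 22 of 22 autosomes, the nearest pair was longer in REH more often around pairs wider in REH than around pairs wider in 697.

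The tendency extended to neighbours whose own lengths hardly differed. Where the nearest pair was a similar pair, it was longer in REH in 52.8% of the cases around pairs wider in REH (49.0 to 56.5) and in 42.3% around pairs wider in 697 (39.5 to 45.1), against 50.2% around similar pairs (48.9 to 51.4). The interval for REH overlapped that of the similar pairs, and that for 697 did not, where both cover counting error alone. It also weakened with distance for 697. The nearest pair of pairs wider in 697 was longer in REH in 28.1% of the cases within 5 kb and in 28.4% from 5 to 20 kb, and in 31.9%, 35.9% and 44.4% from 20 to 50 kb, from 50 to 200 kb and beyond 200 kb. The last of these rests on 63 pairs, and its interval of 32.8 to 56.7 includes the 48.3% of the similar pairs at that distance. For pairs wider in REH the percents were 55.7%, 58.3%, 51.4%, 50.2% and 57.1%, and from 20 kb on their intervals overlapped those of the similar pairs.

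**Figure D4:**
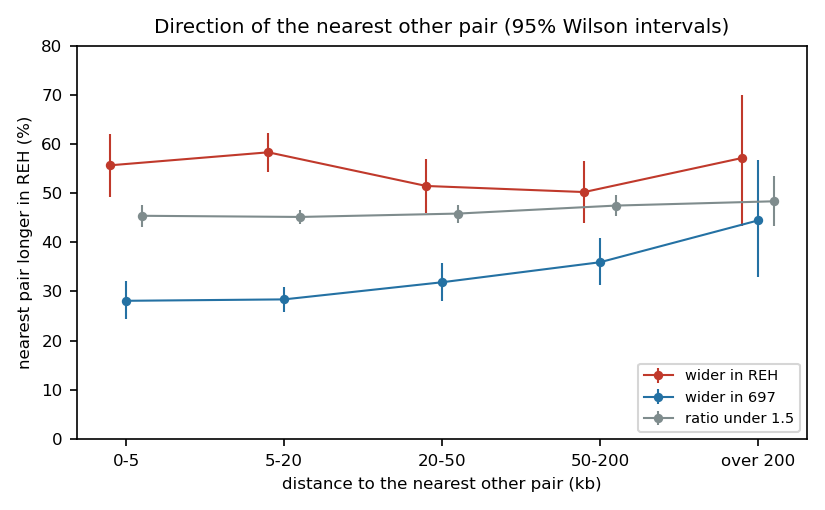
The percent of pairs whose nearest other pair was longer in REH is given on the vertical axis for 5 ranges of the distance to that pair in kb, with 95% Wilson intervals as bars. The similar pairs (grey) stay between 45.2% and 48.3%, the pairs wider in 697 (blue) rise from 28.1% towards them, and the pairs wider in REH (red) lie above them in each range.

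The surroundings of the pairs differed in peaks that the other line lacked altogether. Within 50 kb on either side of a pair wider in 697 there were on average 9.84 other 697 peaks and 4.41 other REH peaks. Around similar pairs the averages were 6.70 and 4.08, and around pairs wider in REH 6.32 and 4.95. The ratio of 697 to REH peaks was thus 2.23, 1.64 and 1.28 in this order. It was higher around pairs wider in 697 than around pairs wider in REH on 22 of 22 autosomes, where it ranged from 1.80 to 2.72 and from 0.945 to 1.51. Peaks that overlapped a peak of the other line varied less over these 3 classes. Their averages were 3.51 REH and 3.37 697 peaks around pairs wider in 697, 2.92 and 2.98 around similar pairs, and 3.01 and 3.24 around pairs wider in REH.

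Peaks called in one line alone accounted for most of the difference in 697 peaks between pairs wider in 697 and similar pairs. The same held for REH peaks around pairs wider in REH. Around pairs wider in 697, overlapping REH peaks were instead more frequent than around similar pairs, and those in REH alone less frequent. Around pairs wider in 697 there were on average 6.47 peaks found in 697 alone and 0.901 found in REH alone, against 3.72 and 1.15 around similar pairs. Around pairs wider in REH the averages were 3.07 and 1.93. Similar pairs leaned the same way to a smaller degree, with 4.10 and 1.08 where the 697 peak was the longer one and 3.34 and 1.23 where the REH peak was. No peak found in REH alone lay within 50 kb for 50.02% of the pairs wider in 697 (48.1 to 51.9), 42.9% of the similar pairs (42.0 to 43.8) and 26.8% of the pairs wider in REH (24.6 to 29.2). No peak found in 697 alone lay there for 5.05% (4.29 to 5.94), 18.2% (17.6 to 18.9) and 21.9% (19.8 to 24.1) of them. Windows of neighbouring pairs overlap, so that these counts share peaks.

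**Figure D5:**
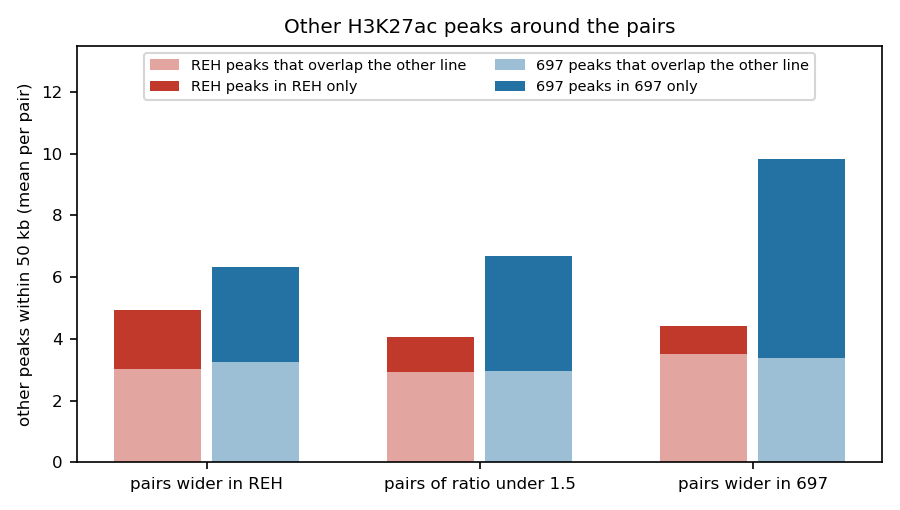
Bars give the mean number per pair of other REH peaks (red) and 697 peaks (blue) within 50 kb, around the 1424 pairs wider in REH, the 12204 similar pairs and the 2713 pairs wider in 697. The pale lower parts, peaks that overlap the other line, stay between 2.92 and 3.51, and the dark upper parts, peaks of one line alone, reach 6.47 in 697 around pairs wider in 697.

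Similar pairs of matching width had surroundings close to those of all similar pairs. The 5590 similar pairs whose longer peak was as long as the interquartile range of the pairs wider in 697 had on average 6.52 other 697 peaks and 4.03 other REH peaks around them, and 3.58 peaks found in 697 alone. The 6007 similar pairs as long as the pairs wider in REH had 6.29 and 3.87 other peaks, and 1.10 found in REH alone. Both comparisons were chosen after the data were seen. The bases under the other peaks moved in the same way. They had a median of 13002 bp in 697 and 4815 bp in REH around pairs wider in 697, 6598 and 4332 bp around similar pairs, and 6148 and 6110 bp around pairs wider in REH. REH peaks covered more of the surroundings than 697 peaks for 50.1% of the pairs wider in REH (47.5 to 52.7), 29.4% of the similar pairs (28.6 to 30.2) and 11.9% of the pairs wider in 697 (10.7 to 13.2).

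The distance to the next peak of the same list differed between the classes. The next 697 peak lay at a median distance of 2004 bp from the 697 peak of pairs wider in 697 (quartiles 1076 and 4657 bp), against 5190 bp in similar pairs and 6720 bp in pairs wider in REH. The next REH peak lay at a median of 4860 bp from the REH peak of pairs wider in REH (1983 and 14537 bp), against 8549 bp in similar pairs and 8090 bp in pairs wider in 697. In each line the median distance was thus shorter from the wider peak of a member than from a peak of a similar pair.

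The surroundings were also read at the single loci with the largest ratios. In the 12 pairs with the largest ratio in 697, 12 had more other 697 peaks than REH peaks within 50 kb, with 136 and 48 in all, and the nearest pair was longer in 697 in 11. More other 697 peaks were also found around 87.3% of all pairs wider in 697 and 67.7% of the similar pairs. In the 12 of REH, 8 had more other REH peaks, with 73 and 55 in all, and the nearest pair was longer in REH in 9. These 12 were unlike their class in this. Of all pairs wider in REH, 29.8% had more other REH peaks and 54.0% had more other 697 peaks. For the similar pairs these percents were 15.04% and 67.7%. Compared with similar pairs, the surroundings of all pairs wider in REH thus leaned towards REH. At chr16:51489394-51494038, where REH had 4645 bp and 697 had 195 bp, there were 7 other REH peaks and no other 697 peak. At chr9:116534186-116541369 there were 9 other REH peaks and 1 of 697. At chr20:5247033-5252252, with 5220 bp in REH and 186 bp in 697, neither line had another peak within 50 kb, so that this pair stood alone. At chr8:10662843-10667133, wider in REH with 4291 bp against 195 bp, the surroundings went the other way, with 5 other REH and 12 other 697 peaks, and the nearest pair was wider in 697. Among the pairs wider in 697, the locus at chr1:39237134-39243045 had 9 other 697 peaks and no other REH peak, and the one at chr8:68449563-68459169 had 19 and 3.

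Further loci among those with the largest ratios filled in this picture. Among the pairs wider in REH, chr2:136917494-136922687 had 5194 bp in REH and 192 bp in 697, with 15 other REH and 14 other 697 peaks around it, a dense region in both lines. At chr10:1450831-1455876, a REH peak of 5046 bp met a 697 peak of 188 bp, with 6 and 4 other peaks, and the nearest pair was also wider in REH. The same held at chr16:89508700-89513266, with 4567 bp against 196 bp and 8 and 4 other peaks. At chr12:57109855-57114774, with 4920 bp against 234 bp, 697 had more other peaks than REH, 9 against 6, and none of the REH peaks around it was found in REH alone. The pair at chr1:194833651-194840801 was remote, since the nearest other pair lay 728545 bp away.

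Among the pairs wider in 697, chr17:21323008-21331029 had 8022 bp in 697 and 203 bp in REH, with 12 other 697 and 2 other REH peaks, and chr13:99191941-99198900 had 6960 bp and 190 bp, with 13 and 8. In both, the nearest pair was also wider in 697. The 697 peak at chr1:68402353-68408863 measured 6511 bp against 204 bp in REH, and 10 of the 13 other 697 peaks around it were found in 697 alone. At chr15:58773016-58779751, with 6736 bp against 217 bp, this was so for 12 of 16, and at chr14:93505556-93511377, with 5822 bp against 187 bp, for 9 of 15. Around these last 3 loci no peak was found in REH alone. The exception in direction was chr12:54816886-54824531, with 7646 bp in 697 and 256 bp in REH, where the nearest pair, 37735 bp away, was longer in REH.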

How the data were processed

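The authors deposited 1 list of H3K27ac peaks for REH and 1 for 697. Per the file headers, MACS 2.1.0.20150731 called the peaks in broad mode against the input of the same line, with q-value cutoffs of 0.05 and 0.1 and 1 tag kept per position. The methods name Bowtie, hg19 and an earlier MACS version. Fragment lengths were 187 bp in REH and 185 bp in 697, and 73916142 and 74026548 input tags remained. The input libraries were not analysed here. Of the 4 samples, the 2 H3K27ac libraries entered the comparisons. Positions are 1-based and lengths are in bp. The deposited pileup, p-value, fold and q-value columns were not used.

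Peaks were paired and classed by length, and percents carry 95% Wilson intervals. No test was run, since each line has 1 library. The pairs, classes and lists were chosen with earlier results of these data known. Pairs named in the text come from the following sets of each class, and not every pair of a set is named. The sets are the 12 with the largest ratio, the 5 with the largest difference and the 5 nearest to the threshold on each side. The windows and runs described are positions chosen after their values were seen. The scripts were tested on simulated data. Scripts ran in Python 3.11.15 with matplotlib 3.10.9, scipy 1.17.1, pandas 2.3.3 and numpy 2.4.6. Transcription starts, gene lists and sequence content, planned for an annotation on hg19, were not analysed here, because the reference at hand is GRCh38 and positions were not converted.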

Additional observations from a re-analysis of the deposited data

How the results depend on the processing

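Of 52 alternative values, 29 moved little and 23 moved by more than the limits set for them. A ratio of at least 2 gave 2860 pairs wider in REH and 4815 wider in 697, and a ratio of at least 4 gave 828 and 1750. With both peaks at 500 bp or more there were 510 and 1218. The longest 697 peaks, as many as REH has, gave 370 pairs wider in REH. More pairs were wider in 697 than in REH under each alternative run.

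The percent passed on both sides was 78.3% in REH and 79.3% in 697 for a ratio of 2, 87.2% and 87.8% for a ratio of 4, 87.2% and 88.4% for an overlap of 50% of the shorter peak, and 59.5% and 66.2% with 200 bp on each side. It was 88.6% in 697 with peaks of 500 bp or more and 86.2% in REH with equal peak numbers. The nearest pair was longer in the same line for 58.4% in REH and 72.9% in 697 with peaks of 500 bp or more, for 62.9% and 60.5% with scaled lengths, and for 73.5% and 67.4% in 697 with equal peak numbers and a ratio of 2.

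Alternatives on transcription starts were not run, since no hg19 annotation was at hand. No paired analysis was possible because each line has 1 library and the labels give no replicate numbers. The depth per peak was not read, since the lists hold no tag counts and their pileup column was not used.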
